A study of Mus musculus with 6 samples.

Results

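Iroquois genes encode transcription factors of the TALE class, whose homeodomain has an extended loop, and mice carry 6 of them, arranged as Irx3, Irx5 and Irx6 on chromosome 8 and Irx1, Irx2 and Irx4 on chromosome 13. The data described here are the open chromatin regions around these 6 genes. A peak was taken as a member when its midpoint lay within 500 kb of a GENCODE start site of one of the genes, and it was given to the nearest of them. The rule found 132 of the 61954 peaks of the series, of which 76 lay in the Irx3-Irx5-Irx6 locus and 56 in the Irx1-Irx2-Irx4 locus. The nearest gene was Irx3 for 39 peaks, Irx5 for 25, Irx6 for 12, Irx1 for 24, Irx2 for 12 and Irx4 for 20. The rule used position only and no measured value. Of the members, 46 lay within 1 kb of another one, so that neighbouring values are not independent.

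Accessibility was measured by ATAC-seq, in which the transposase Tn5 inserts sequencing adapters into open chromatin. Distal forelimb buds of mouse embryos at E11.5, on a mixed background of C57Bl/6 and 129, gave 2 wild-type libraries and 2 HOX13-/- libraries. The mutants lack Hoxa13 through the Hoxa13 Str null allele and Hoxd13 through the Hoxd13 lacZ null allele, and are written Hox13-/- below. Per the methods of the study, each library held 50000 cells of 1 embryo, taken from its left and right buds together, so the genotypes were compared over 2 embryos each. Both alleles are constitutive, and all cell types of the bud contribute to a library, so that a change in accessibility per cell and a change in the share of cells that are open cannot be told apart. Another 2 libraries, from proximal buds, were not analysed here.

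Iroquois proteins act with other patterning factors in the early limb bud, where Irx3 and Irx5 are known for their part in forming proximal and anterior skeletal elements of the hindlimb. Each cluster is spread over gene-poor DNA rich in distal enhancers. Those of the Irx3-Irx5-Irx6 cluster extend into the introns of Fto, a gene for an RNA demethylase, which is known for regulatory DNA that contacts Irx3 across a long distance. HOX13 proteins (HOXA13 and HOXD13) pattern the digits and bind A/T-rich motifs. The spellings searched for here were CAATAAA as one form, then TCATAAA as another of the forms known, and lastly TCGTAAA.

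Printed here are the regions with the smallest p, for each direction in each locus, and for the introns of Fto the first 3 by that measure. Each is the forward strand of GRCm38 (mm10) from RefSeq, the peak itself or its central 300 bases, with matches to the 3 HOX13 spellings on either strand in capitals. The 2 regions of the Irx5 side, chr8:92437149-92437448 (higher in Hox13-/-) and chr8:92450034-92450231 (lower), held no match in the printed bases, though the whole of the first peak held 1:
Irx5 +79.5 kb: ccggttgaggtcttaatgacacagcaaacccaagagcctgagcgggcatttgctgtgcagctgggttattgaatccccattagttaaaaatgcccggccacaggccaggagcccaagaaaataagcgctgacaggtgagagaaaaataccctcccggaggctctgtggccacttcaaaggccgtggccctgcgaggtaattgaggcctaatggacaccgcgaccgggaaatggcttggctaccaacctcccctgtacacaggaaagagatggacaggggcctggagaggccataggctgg
Irx5 +92.4 kb: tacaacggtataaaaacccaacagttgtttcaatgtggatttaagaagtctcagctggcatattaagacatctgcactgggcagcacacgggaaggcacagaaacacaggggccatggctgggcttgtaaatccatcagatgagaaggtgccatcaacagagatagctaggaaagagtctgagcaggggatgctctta
In the Irx1-Irx2-Irx4 locus, chr13:71644337-71644636 (higher) and chr13:71549401-71549700 (lower) each held 1 match:
Irx1 +314.9 kb: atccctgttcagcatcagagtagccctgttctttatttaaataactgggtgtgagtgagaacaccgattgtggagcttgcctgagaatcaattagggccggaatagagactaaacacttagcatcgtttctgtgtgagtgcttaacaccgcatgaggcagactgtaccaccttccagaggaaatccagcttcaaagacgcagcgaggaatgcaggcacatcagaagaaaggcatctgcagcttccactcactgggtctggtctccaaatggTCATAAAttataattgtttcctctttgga
Irx1 +409.9 kb: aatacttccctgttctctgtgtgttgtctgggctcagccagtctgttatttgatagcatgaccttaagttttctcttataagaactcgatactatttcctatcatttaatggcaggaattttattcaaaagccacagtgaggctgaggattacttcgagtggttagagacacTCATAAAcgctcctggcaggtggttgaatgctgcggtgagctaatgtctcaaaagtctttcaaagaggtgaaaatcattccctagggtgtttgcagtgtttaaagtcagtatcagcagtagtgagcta
In the introns of Fto, chr8:91378943-91379242 (higher), chr8:91516866-91517068 (higher) and chr8:91614868-91615167 (lower) held a match in the first only:
Irx3 +422.8 kb: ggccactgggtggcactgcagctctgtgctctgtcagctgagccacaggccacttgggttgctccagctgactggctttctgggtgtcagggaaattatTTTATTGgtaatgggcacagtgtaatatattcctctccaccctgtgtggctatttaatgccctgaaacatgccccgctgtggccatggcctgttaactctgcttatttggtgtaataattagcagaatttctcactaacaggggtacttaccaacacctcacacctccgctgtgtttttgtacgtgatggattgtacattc
Irx3 +284.9 kb: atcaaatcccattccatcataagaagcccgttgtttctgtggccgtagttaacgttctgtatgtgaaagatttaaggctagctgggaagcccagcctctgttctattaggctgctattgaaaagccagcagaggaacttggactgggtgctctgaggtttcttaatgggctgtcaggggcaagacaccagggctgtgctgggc
Irx3 +186.9 kb: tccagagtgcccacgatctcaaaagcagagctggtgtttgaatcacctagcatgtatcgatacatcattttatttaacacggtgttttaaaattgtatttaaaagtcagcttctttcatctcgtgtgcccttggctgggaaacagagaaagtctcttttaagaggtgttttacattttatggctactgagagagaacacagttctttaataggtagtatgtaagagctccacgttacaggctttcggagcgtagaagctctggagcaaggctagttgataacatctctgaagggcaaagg
Names give the nearest member and the distance of the peak from its start site, with a plus sign downstream and a minus sign upstream in the direction of transcription.

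Both Iroquois clusters gained more accessible regions than they lost in Hox13-/- distal buds, by moderate amounts. Of the 132 peaks, 26 rose, 11 fell and 95 did not pass the test, which was limma on the rLog values of all 61954 peaks at a Benjamini-Hochberg adjusted p under 0.05. The rise took 19.7% of the members against 11.4% of all peaks, and the fall took 8.33% against 8.31%. In either direction, 19.7% of all peaks passed. With the libraries centred on their medians, the order over all peaks turned, to 9.71% higher and 11.0% lower, whereas 24 members (18.2%) were higher and 15 (11.4%) lower. All 37 called members had both mutant libraries on the same side of both wild-type libraries. The same held for 5062 of all 5146 fallen peaks and 7014 of all 7040 risen ones, so it does not set the members apart. None of the called members differed by 2-fold or more, a size that 0.224% of all peaks reached downwards and 0.313% upwards. The rLog scale is log2 and pulls differences of weak peaks towards 0, and with no read numbers in the table the depth behind a peak is unknown.

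At the adjusted p used here, distance from start sites moved with the share of rises and not with that of falls. Differences as a whole did shift with it, as the median over all peaks was -0.1 within 1 kb of a start site and 0.07 farther away. Of all peaks over 1 kb from any start site, 16.1% rose and 8.31% fell, and of all peaks within 1 kb of one, 2.38% rose and 8.31% fell. Among the members, 108 lay over 1 kb from any start site, and of these 24.1% rose and 10.2% fell. The 24 members near a start site of any gene had no call in limma, and 2 of them had an unadjusted p under 0.05. At the shares over all such peaks, few calls would fall among 24, so nothing is read from this count. The median GC content was 45.4% in the members that fell, 48.3% in those that rose and 50.2% in the others. After a correction for GC content, 11 peaks rose and 7 fell in the Irx3-Irx5-Irx6 locus, and 10 rose and 8 fell in the Irx1-Irx2-Irx4 locus, against the uncorrected 13 and 5 and 13 and 6. Over all peaks the same correction brought rises down to 8.67% and left falls at 8.26%, beside 15.9% and 11.4% of the members. Of the 26 members that rose, 18 were still called as higher after it, and of the 11 that fell, 10 as lower. Of the 26 members that rose, 16 had been called as peaks by the authors' peak caller in Hox13-/- libraries only and 10 in both genotypes. Of the 11 that fell, 9 had been called in wild-type libraries only and 2 in both. Over the whole table, 4146 of 7040 risen peaks (58.9%) had been called in Hox13-/- only, and 2621 of 5146 fallen ones in wild type only. These peak calls rest on the same libraries as the differences and are no separate evidence.

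The clusters were then set side by side. In the Irx3-Irx5-Irx6 locus, 13 of 76 peaks rose (17.1%) and 5 fell (6.58%). In the Irx1-Irx2-Irx4 locus, 13 of 56 rose (23.2%) and 6 fell (10.7%). The median difference, Hox13-/- minus wild type, was 0.07 rLog in the first and 0.04 in the second, against -0.005 over all peaks. Between the loci the medians differed by 0.04. Without peaks near start sites the order turned, with medians of 0.09 and 0.15 and a difference of -0.06. The counts of peaks that fell rested most on single libraries. Without wild-type replicate 1 they were 2 and 3, without Hox13-/- replicate 2 they were 4 and 2, and the 13 risen peaks of the Irx1-Irx2-Irx4 locus came to 8 without wild-type replicate 1. The difference between the loci itself was not tested.

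**Figure D1:**
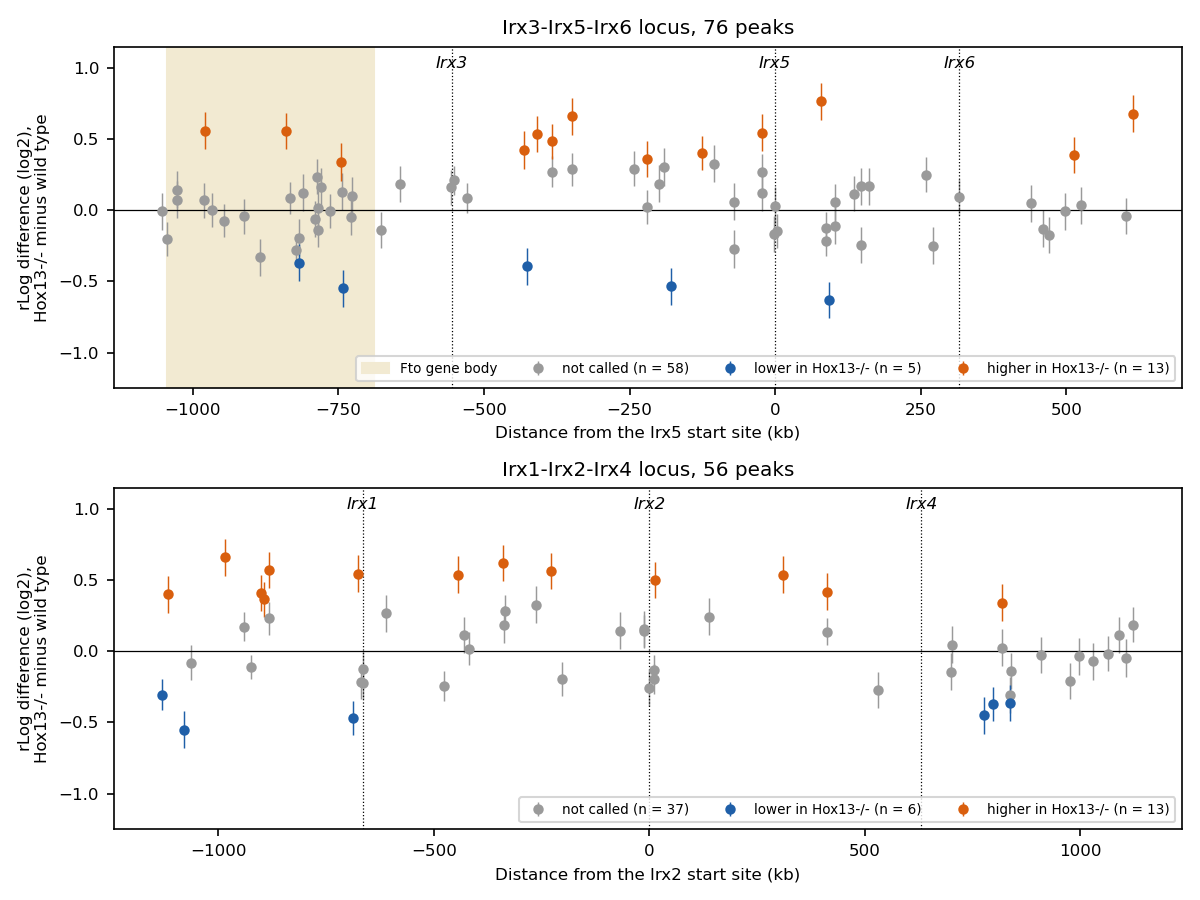
Difference in rLog (log2 scale, Hox13-/- minus wild type) of each member peak against its distance in kb from the Irx5 start (top, 76 peaks) or the Irx2 start (bottom, 56 peaks), with limma standard errors as bars. Orange peaks rose (13 per locus), blue peaks fell (5 and 6), grey peaks did not pass the test, dotted lines mark the gene starts and the shaded band is the Fto gene body. The 7 peaks within 1 kb of a gene start are all grey.

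The counts were next read by the spaces between the genes, beside the 11.4% of all peaks that rose and the 8.31% that fell. Most members lay over 1 kb from any start site, and of all such peaks 16.1% rose and 8.31% fell, with a median of 0.07. Between Irx3 and Irx5, whose starts are 555.6 kb apart, 7 of 23 peaks rose (30.4%) and 2 fell (8.7%), 19 had a positive difference and the median was 0.27. The Fto introns held 24 peaks, with 3 that rose (12.5%), 2 that fell (8.33%) and a median of 0.01. These shares are near those over all peaks. The share of rises and the median are below those of all peaks over 1 kb from a start site. Between Irx5 and Irx6, 1 of 14 peaks rose and 1 fell. Beyond Irx6, 2 of 8 rose and 6 did not pass the test. On chromosome 13, the DNA on the downstream side of Irx1 held 13 peaks, of which 6 rose and 3 fell, so that 4 did not pass the test. Between Irx1 and Irx2, 3 of 16 peaks rose, and between Irx2 and Irx4, 3 of 8 rose. Beyond Irx4 the counts had the other order, with 1 of 17 peaks higher, 3 lower and a median of -0.05. Read by gene, the peaks nearest Irx1 had the highest share of rises, with 8 of 24, and those nearest Irx4 the lowest, with 2 of 20, but these lists are short, and differences between spaces or between genes were not tested.

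**Figure D2:**
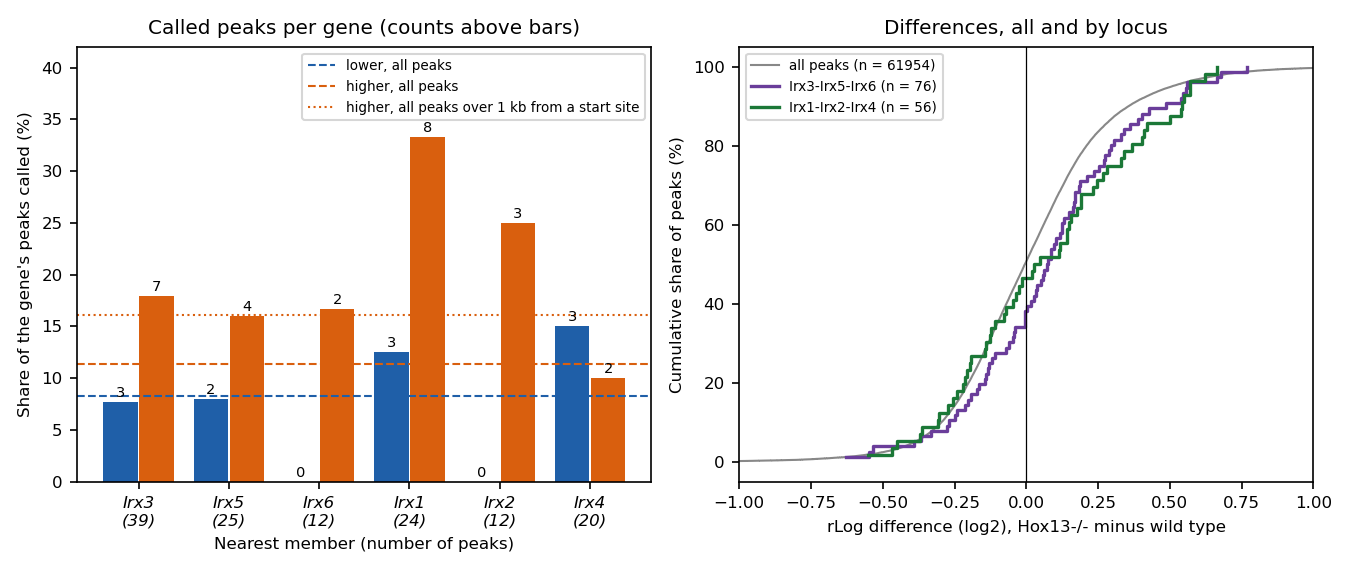
Left, share in percent of the peaks nearest each gene that rose (orange) or fell (blue), with counts above the bars and dashed lines for all 61954 peaks (11.4% and 8.31%) and a dotted line for rises among all peaks over 1 kb from a start site (16.1%). Right, cumulative share of peaks by rLog difference for all peaks, for the 76 peaks of the Irx3-Irx5-Irx6 locus and for the 56 of the Irx1-Irx2-Irx4 locus. Both locus curves lie to the right of the curve of all peaks over most positive differences.

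At the start sites of the Iroquois genes themselves accessibility did not pass the test in any case. There were 7 such peaks, of which Irx1 had 3, Irx2, Irx3, Irx5 and Irx6 had 1 each and Irx4 had none. The peak nearest to the Irx4 start lay 67.9 kb from it. The peak over the first exon of Irx2 (chr13:72628496-72629220) read 7.01 and 6.84 rLog in wild type against 6.58 and 6.75 in Hox13-/-. Both mutant values were below both wild-type values, and the difference of -0.26 ± 0.13 (SE) had an adjusted p of 0.145. After the correction for GC content the difference was -0.11 with an adjusted p of 0.606. At Irx3 (chr8:91801423-91801576) the values were 3.51 and 3.56 against 3.67 and 3.72, a difference of 0.16 with an adjusted p of 0.367, and here the mutant libraries were the higher ones. This peak also lies within the antisense gene Irx3os, and ATAC-seq does not tell strands apart.

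The start peak of Irx5 (chr8:92357631-92357844) read 4.94 and 4.76 in wild type against 4.94 and 4.83 in Hox13-/-, and the groups overlapped. Its difference of 0.03 took the opposite sign under each of 3 other scalings of the libraries, at -0.002 to -0.011. The start peak of Irx6 (chr8:92673562-92673772) read 3.97 and 4.00 against 4.18 and 3.98, so that the groups overlapped as well. The 3 peaks of Irx1 had differences of -0.21, -0.22 and -0.12, with adjusted p of 0.227, 0.149 and 0.5, and the second of them had an unadjusted p of 0.046.

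Per length, the start peaks fell into an order in which most neighbours were no farther apart than libraries of one genotype. On the scale of mean rLog minus log2 of the length in kb, Irx2 stood at 7.26, Irx5 at 7.09, the Irx1 peaks at 6.58, 6.52 and 6.08, Irx3 at 6.32 and Irx6 at 6.28. The step from Irx2 to Irx5 was 0.17, and the wild-type libraries differed by as much (0.17 at Irx2 and 0.19 at Irx5). The step of 0.51 from Irx5 to the next peak was larger than any gap between libraries of one genotype, the largest of which was 0.41. Among the 19119 peaks within 1 kb of a protein-coding start, those most like the Irx2 peak over the 4 libraries were at Odf2l, Slc25a27 and Dpp8, at Euclidean distances of 0.0586 to 0.0612 rLog. RefSeq windows from 250 bases before to 50 after the start were at hand for Irx2, Irx3 and Irx4, and none of these 3 held one of the HOX13 spellings, which 8.57% of all 32851 windows held.

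**Figure D3:**
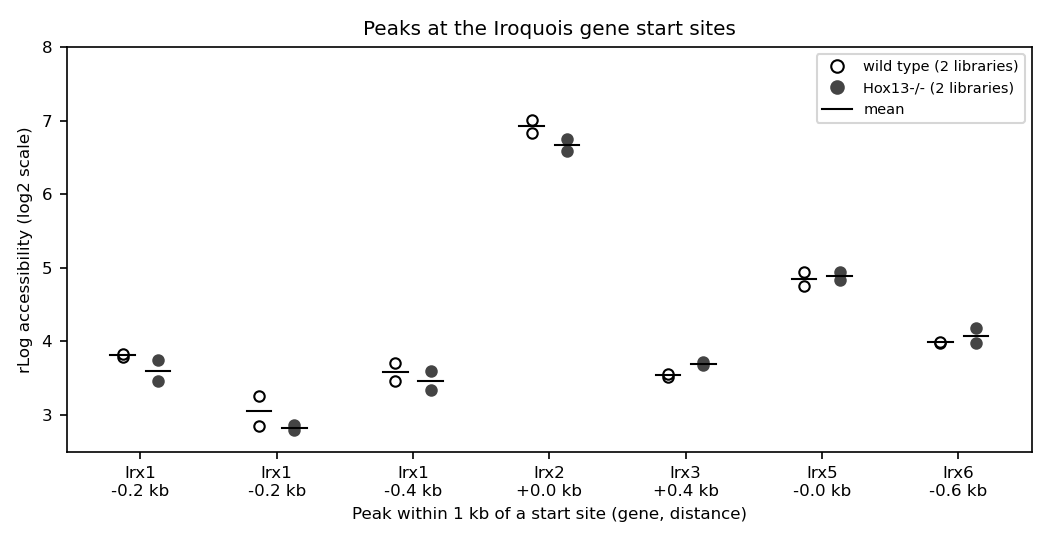
rLog (log2 scale) of the 7 peaks within 1 kb of an Iroquois start site in each library, with open points for wild type, filled points for Hox13-/- and a line at each mean of 2 libraries. The points of the genotypes lie apart at Irx2 (lower in Hox13-/-), Irx3 (higher) and the Irx1 peak inside the gene, and the smallest adjusted p of the 7 peaks was 0.145.

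Around Irx5 a gain and a loss lay close together. The peak 79.5 kb downstream (chr8:92436876-92437720, intergenic) read 5.73 and 6.16 in wild type against 6.79 and 6.63 in Hox13-/-. It was the member with the largest rise, 0.77 ± 0.13 (SE) or 1.70-fold on the shrunken scale, with an adjusted p of 1.2e-07. It had been called as a peak in both mutant libraries and in neither wild-type one. The member with the largest fall lay 12.8 kb farther on (chr8:92450034-92450231, intergenic). It read 4.17 and 4.22 in wild type against 3.63 and 3.51 in Hox13-/-, a difference of -0.63 ± 0.13 with an adjusted p of 1.7e-05, and had been called in both wild-type libraries and in neither mutant one. Each kept its call when any single library was left out, with differences of 0.56 to 0.98 and of -0.69 to -0.57. Their sequences are those printed first.

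Of the other peaks given to Irx5, the one 22.4 kb upstream, inside the long non-coding gene Crnde, read 4.51 and 4.33 against 5.08 and 4.85 and rose by 0.55. The one 178.1 kb upstream, in an intron of Gm45335, read 5.54 and 5.13 in wild type against 4.75 and 4.85 in Hox13-/-, and fell by 0.53. This last call was lost without wild-type replicate 1, where the difference was -0.33 with an adjusted p of 0.182.

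On the upstream side of Irx3, in the space shared with Irx5, several regions rose. The one with the highest mean rLog, not scaled for length, lay 171.9 kb upstream (chr8:91973463-91974523) and read 7.80 and 7.80 in wild type against 8.28 and 8.29 in Hox13-/-, with hardly any spread within a genotype. Its difference was 0.49 ± 0.12 with an adjusted p of 0.000986. The peak 206.6 kb upstream (chr8:92008423-92008948, an intron of Gm36843) read 5.18 and 5.20 against 5.88 and 5.83, and the rise of 0.66 had an adjusted p of 1.0e-05. This region was called as a peak in the mutant libraries only and held 2 matches to the HOX13 spellings. Those 146.6 kb and 124.2 kb upstream rose by 0.54 and 0.43. Between these last rises lay a fall, 128.6 kb upstream (chr8:91930511-91930889), from 5.97 and 5.98 to 5.48 and 5.68. Its difference of -0.39 had an adjusted p of 0.0177, but the call was lost without wild-type replicate 1 (adjusted p 0.0681), without wild-type replicate 2 (0.0835) and without Hox13-/- replicate 1 (0.233).

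In the introns of Fto the changes went both ways. The intronic peak 422.8 kb from Irx3 (chr8:91378881-91379303) read 5.57 and 5.45 in wild type against 6.16 and 5.97 in Hox13-/-, and rose by 0.56 with an adjusted p of 0.000276. The one 284.9 kb from Irx3 (chr8:91516866-91517068) read 3.77 and 3.85 against 4.31 and 4.43, and rose by 0.56 with an adjusted p of 0.000233. Both kept their call without any single library. A fall was seen at 186.9 kb (chr8:91614861-91615173), from 5.33 and 4.87 to 4.63 and 4.47. The wild-type libraries differed here by almost as much as the genotypes, and the difference of -0.55 shrank to -0.32 without wild-type replicate 1, with an adjusted p of 0.193. Close by, the peak at 189.2 kb read 4.79 and 4.83 against 5.15 and 5.15 and rose by 0.34. Its adjusted p of 0.048 was just under the limit. The second fall, at 262.8 kb, was -0.37 and was lost under the GC correction (adjusted p 0.233) and without 3 of the 4 libraries in turn, namely wild-type replicate 1 (0.343), Hox13-/- replicate 1 (0.191) and Hox13-/- replicate 2 (0.0601).

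The peak at the start of Fto itself (chr8:91313054-91313817) had the highest mean rLog of the Irx3-Irx5-Irx6 locus, not scaled for length, and is shared with the start of Rpgrip1l, a gene for a ciliary protein. It read 8.28 and 8.45 in wild type against 8.15 and 8.17 in Hox13-/-, a difference of -0.20 with an adjusted p of 0.242. Near Irx6, both changes were rises far downstream and inside other genes. In an intron of Slc6a2, which encodes the noradrenaline transporter, the peak 298.3 kb from Irx6 (chr8:92972944-92973351) read 5.30 and 5.25 in wild type against 5.95 and 5.96 in Hox13-/-. The rise of 0.68 ± 0.13 had an adjusted p of 5.6e-06. The one in Lpcat2, at 195.7 kb, read 5.70 and 5.16 against 5.81 and 5.83 and rose by 0.39, with the wild-type libraries farther apart than the genotype means.

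**Figure D4:**
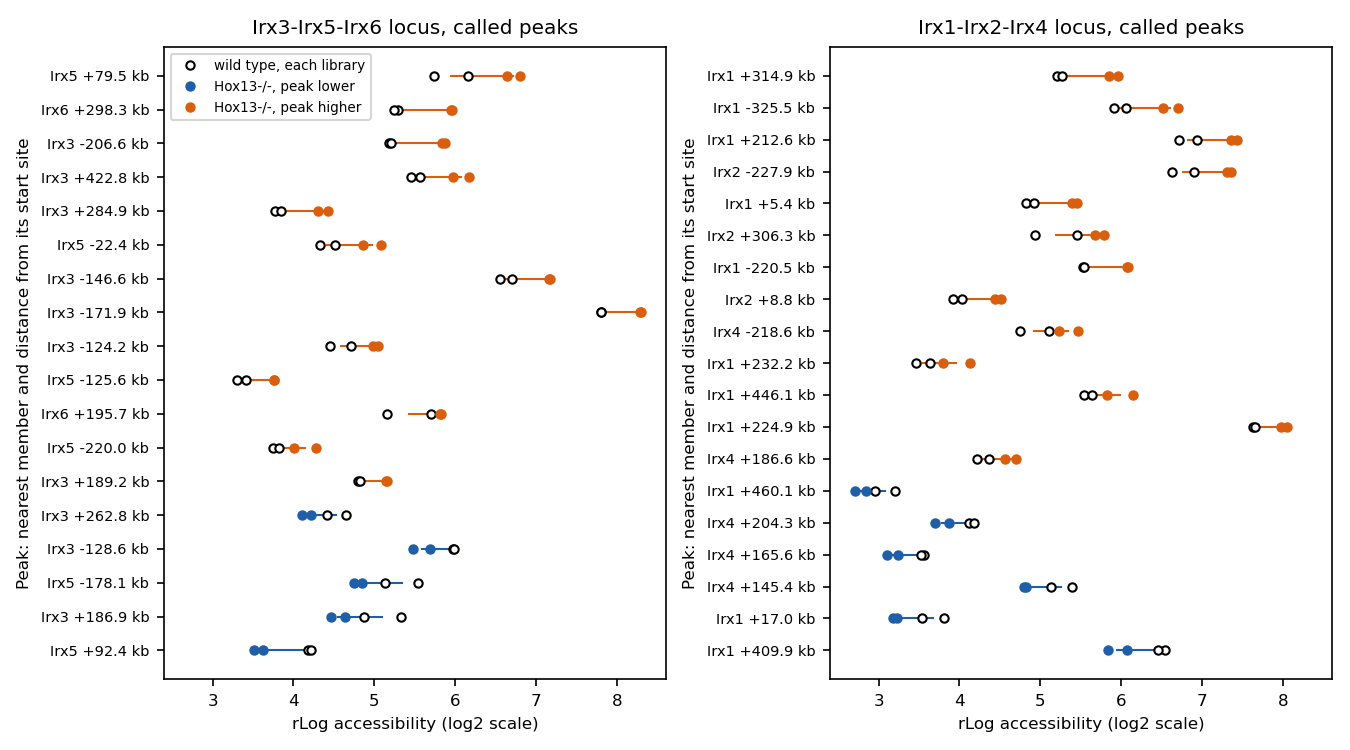
rLog (log2 scale) in each library of the 37 member peaks that passed the test, with open points for wild type, coloured points for Hox13-/- and a line between the means of the genotypes, for the Irx3-Irx5-Irx6 locus (left) and the Irx1-Irx2-Irx4 locus (right). In every row both mutant points lie on one side of both wild-type points, and several of the falling peaks have wild-type points that are far apart, as at 186.9 kb downstream of Irx3 (5.33 and 4.87).

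In the Irx1-Irx2-Irx4 locus the changed regions nearest Irx1 lay on both sides of the gene. The largest rise was 314.9 kb downstream (chr13:71644295-71644678, intergenic), where the libraries read 5.20 and 5.27 in wild type against 5.84 and 5.95 in Hox13-/-. The difference was 0.66 ± 0.13 with an adjusted p of 1.0e-05, and the region was called as a peak in the mutant libraries only. The peak 325.5 kb upstream (chr13:72288880-72289490) read 6.06 and 5.91 against 6.70 and 6.52, a rise of 0.62. The one 212.6 kb downstream (chr13:71746389-71747297), in an intron of Gm40999, read 6.71 and 6.94 against 7.36 and 7.43, a rise of 0.57, and held 3 matches to the HOX13 spellings. Close to the gene, 5.4 kb downstream of the start, a further peak rose by 0.55, from 4.82 and 4.92 to 5.38 and 5.46. All 4 of these rises kept their call without any single library.

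The peak with the highest mean rLog of this locus, not scaled for length, lay 224.9 kb downstream of Irx1 (chr13:71734178-71734897) and read 7.63 and 7.65 in wild type against 8.05 and 7.97 in Hox13-/-. Its rise of 0.37 had an adjusted p of 0.0205 and did not pass after the GC correction (0.28, adjusted p 0.107) or without any one of the 4 libraries (adjusted p of 0.0837 without wild-type replicate 1, 0.0582 without wild-type replicate 2, 0.164 without Hox13-/- replicate 1 and 0.0741 without Hox13-/- replicate 2). The next on that measure, 393.9 kb downstream, read 7.45 and 7.43 against 7.38 and 7.34, and its difference of -0.08 did not pass the test and took the opposite sign under cyclic loess normalization (0.002).

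Among the falls of the locus, the largest was 409.9 kb downstream of Irx1 (chr13:71549247-71549854), in an intron of 1700112M02Rik. It read 6.54 and 6.45 in wild type against 6.07 and 5.83 in Hox13-/-, a difference of -0.55 ± 0.13 with an adjusted p of 0.000326. It held 3 matches to the HOX13 spellings, 1 of them in the printed bases. Without Hox13-/- replicate 2 the difference was -0.43 with an adjusted p of 0.0558. The peak 17.0 kb downstream of the Irx1 start read 3.81 and 3.54 against 3.23 and 3.18, a difference of -0.47 that did not pass without wild-type replicate 1 (adjusted p 0.112).

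Irx2 and Irx4 had fewer changed regions than Irx1, which had 8 rises and 3 falls among 24 peaks, but their lists were also shorter. Irx2 had 3 rises among 12 peaks, and Irx4 had 2 rises and 3 falls among 20. For Irx2, all 3 calls were rises, led by the peak 227.9 kb upstream (chr13:72400554-72401334), which read 6.62 and 6.90 in wild type against 7.35 and 7.31 in Hox13-/- and rose by 0.57 with an adjusted p of 0.000132. The rise nearest to the gene, 8.8 kb downstream of its start, was from 4.03 and 3.91 to 4.51 and 4.44. For Irx4, 3 peaks between 145.4 and 204.3 kb downstream fell. The first of them (chr13:73405732-73406036) read 5.39 and 5.13 against 4.83 and 4.79, a difference of -0.45 with an adjusted p of 0.00587. The others, at 165.6 and 204.3 kb, fell by 0.37 and 0.36. All 3 falls lay closer to the start of Lpcat1, a gene for a phospholipid acyltransferase, than to Irx4. Each of these 3 calls was lost without wild-type replicate 1 (adjusted p of 0.197, 0.0826 and 0.0771) and without at least 1 other library, namely Hox13-/- replicate 2 for the first (0.0561), Hox13-/- replicate 1 for the second (0.145), and wild-type replicate 2 (0.15) and Hox13-/- replicate 2 (0.238) for the third. One peak among them, at 186.6 kb, rose by 0.34, with an adjusted p of 0.0459, just under the limit.

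Matches to the HOX13 spellings were found in 27 of the 132 members (20.5%) and in 12.8% of all peaks. Members were mostly distal, and 16.4% of all peaks over 1 kb from a start site held one, against 24.1% of such members. By direction, 7 of the 26 members that rose held a match (26.9%, against 22.7% of all risen peaks), and 2 of the 11 that fell (18.2%, against 21.4% of all fallen peaks). No fallen peak of the Irx3-Irx5-Irx6 locus held one, which says only that these letters are not in those 5 peaks. Longer peaks hold more matches by length alone, and the risen members had a median length of 389.5 bases against 231 for all members. Within 200 bases around the midpoint the share was 7.69% for the risen members, 18.2% for the fallen ones, 14.4% for all members and 9.7% for all peaks. The spelling ACATGT, bound by Iroquois proteins, was found on either strand in 12 members (9.09%) and in 5.81% of all peaks, and it does not overlap the HOX13 spellings.

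The other genes of the TALE class served as a list of relatives, comprising the Meis, Pbx, Pknox and Tgif genes and Mkx, with 523 peaks within 500 kb of 12 genes. Of these peaks 53 rose (10.1%), 45 fell (8.6%) and 425 did not pass the test, and the median difference was -0.05, against 0.07 for the Iroquois members. The lists also differed in median GC content, at 55.2% against 49.3% for the Iroquois members, and its part in this was not tested. Rises outnumbered falls at 5 of the 12 genes. Around Meis1, which encodes a HOX cofactor of the proximal limb, 7 of 20 peaks rose and 1 fell. Around Meis2, its close relative, 6 of 20 rose, but around Meis3 only 1 of 48 rose and 2 fell. Around Pknox2, 16 of 77 rose and 4 fell. Around Pbx4 and Pbx2, in denser stretches of genes, 7 peaks each fell and 1 each rose. The lists were described and not tested against each other.

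Other genes whose starts lie in the same windows did not pass the test at their start sites. Of 10 protein-coding neighbours in the Irx3-Irx5-Irx6 windows, 5 had a peak there, and of 9 in the Irx1-Irx2-Irx4 windows, 7 had one. No such peak passed the limma test, and 0 had an unadjusted p under 0.05. Of all 21419 peaks within 1 kb of a start site, 8.31% fell and 2.38% rose. At an unadjusted p under 0.05 in limma, 3920 of them were lower and 864 higher. Few calls would fall among so few peaks, so nothing is read from this count. The neighbours included Mmp2, a matrix metalloproteinase gene, at -0.17, and Tert, the telomerase gene, at -0.03.

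Marker genes of limb mesenchyme, distal limb and other tissues were looked up at their start sites. Without the proximal libraries, the presence of a peak there cannot tell distal from proximal limb. All 7 mesenchymal markers examined, Prrx1 among them, and all 4 distal ones had a peak at the start site, whereas none of the 5 heart markers did. Markers of other cell types of the bud had such peaks for 3 of 8 ectoderm genes, 2 of 5 endothelium genes, 1 of 5 blood genes, 1 of 4 muscle precursor genes and 1 of 3 nerve and glia genes. The summed level of each marker list over the libraries, in log2 units, ran from 9.38 to 9.43 for mesenchyme, 8.37 to 8.43 for distal limb, 4.7 to 4.9 for ectoderm, 7.18 to 7.35 for endothelium, 2.98 to 3.16 for blood, 4.12 to 4.31 for muscle precursors and 3.24 to 3.41 for nerve and glia. Both mutant sums were below both wild-type sums for ectoderm and blood and above them for distal limb. The sums lay close, at 4.9 and 4.73 in wild type against 4.72 and 4.7 for ectoderm (3 peaks). For distal limb they were 8.37 and 8.41 against 8.42 and 8.43, and for blood (1 peak) 3.16 and 3.1 against 3.02 and 2.98. No shift in cell types is read from these orders, and the part of cell types in the differences was not tested. At the targeted genes, a start peak of Hoxd13 read 4.06 and 4.17 in wild type against 3.70 and 3.50 in Hox13-/- (adjusted p 0.000608), a second one read 4.35 and 4.34 against 3.99 and 4.17 and did not pass the test (adjusted p 0.137), and the start peak of Hoxa13 read 5.71 and 5.95 against 5.66 and 5.84, though accessibility does not measure whether either protein is lost.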

How the data were processed

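ATAC-seq reads of 2 wild-type and 2 Hox13-/- distal forelimb libraries were aligned by the authors to mm10 with Bowtie2 2.3.1. They called peaks per library with MACS2 2.1.1.20160309, merged them over the 4 libraries and quantified them with HOMER 4.9.1 and DESeq2. The deposited values are regularized log (rLog) values on the log2 scale, scaled for library size and shrunk towards the mean of a peak. Removal of duplicates, a blacklist and a Tn5 offset are not given in the sources used here. Read numbers per peak are not in the table, so depth is unknown and no counting interval was computed. The deposited fold changes and p-values of the authors' own comparison of the genotypes were not used. A further column names the libraries in which a peak had been called.

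The 4 rLog columns of all 61954 peaks were fitted with limma 3.58.1 (R 4.3.3) with 1 term for genotype and a variance trend, two-sided, with Benjamini-Hochberg adjustment over all peaks. Peaks with an adjusted p under 0.05 were called, without a fold limit, since shrinkage makes a 2-fold limit strict, and the 2-fold count is given beside it. A permutation test could not reach 0.05 with 2 libraries on each side. The limma p borrows its estimate of the spread from the other peaks. The procedure was tested on simulated data with 2-fold changes, larger than those of the members, and there the share of false calls was above the nominal level.

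The GRCm38 genome (mm10) was read with pysam 0.24.0, gene starts came from GENCODE M21, and coordinates count from 1. Members, gene lists and tests were chosen with earlier results of these data known. Peaks named were those at member start sites (at most 2 per gene by mean rLog), the 5 called peaks per direction and locus with the smallest p and the libraries of the genotypes apart, any past 2-fold, the 2 per locus with the highest mean rLog and the 3 of Fto introns with the smallest p. Outside this rule, the remaining Irx1 start peak and the called peaks -22.4 kb from Irx5, -146.6, -124.2 and 189.2 kb from Irx3, 195.7 kb from Irx6, 8.8 kb from Irx2 and 186.6 kb from Irx4 were named after their values were seen. Alternatives were 3 other scalings (median centring, quantile and cyclic loess normalization), no variance trend, filters on mean rLog, other thresholds and windows, a replicate block, a correction for GC content and fits without 1 of the libraries.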

Additional observations from a re-analysis of the deposited data

How the results depend on the processing

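Counts below are given as lower and higher peaks for the Irx3-Irx5-Irx6 locus, then the Irx1-Irx2-Irx4 locus, where the reported counts were 5 and 13, and 6 and 13. With the upper 75% of peaks by mean rLog, lower peaks of the second locus came to 3, its median difference to 0.147 and the difference of medians to -0.052. With the upper 50%, lower peaks came to 3 and 2 and to 3268 in the whole table, and these medians to 0.245 and -0.188. At an adjusted p under 0.01, lower peaks were 3 and 3, and 2711 in all. Past 2-fold the counts were 0 and 0, 0 and 0, and 139 and 194 in all, and past 1.5-fold 1 and 3, 0 and 2, and 965 and 2064. Within 1000 kb, the second locus had 11 lower peaks and a median of -0.035. With members defined by the nearest protein-coding start, the first locus had 3 and 8, and the medians were 0.162 and 0.144. Without promoter peaks the second median was 0.147 and the difference -0.061. For motif matches within 200 bp of the midpoint, shares were 9.7% of all peaks and 7.69% of risen members. Leaving out each library gave 2 to 4 lower and 9 to 11 higher peaks in the first locus, 2 to 5 and 8 to 11 in the second, and 2865 to 3552 and 4650 to 5008 in all. Medians were then 0.04 to 0.098 and 0.022 to 0.075, and their difference 0.008 to 0.05. The cause of these moves was not tested, beyond the fewer peaks or samples that a filter or an omission leaves.

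The replicate number as a block left 5 and 13, and 6 and 13, with the same 11 and 26 members called, and gave 4967 and 7013 in the whole table. Deviations of same-numbered libraries did not go together (r = -0.0106 across 61954 peaks), so the numbers were not taken as pairs. With the GC correction the block gave 7 and 11, and 8 and 10. Of 22 called peaks that are named by rule, 10 lost their call in 21 of 88 omissions of a library and 2 lost it in 4 of 190 other settings, all under the GC correction, and no called peak turned its sign. Uncalled peaks that turned were Irx1 +393.9 kb (0.002, cyclic loess normalization), Irx5 -0.0 kb (-0.002, -0.006 and -0.011 under median centring, quantile and cyclic loess normalization, and -0.061 to 0.125 without 1 library), Irx1 -0.4 kb (-0.251 to 0.003 without 1 library) and Irx6 -0.6 kb (-0.009 to 0.198 without 1 library).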
